A study of Gallus gallus with 50 samples.

Results

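The genes described here were those lower in a sorted neural crest fraction of the chicken head (GFP+) than in the rest of the head (GFP-) at most of 6 early stages. They numbered 90 of the 24356 genes in the deposited count table. They were chosen by read counts scaled to the library total (CPM, which sum to 1000000 in each library). CPM were averaged over the libraries of each group, and the ratio of (GFP+ CPM + 0.5) to (GFP- CPM + 0.5) was taken at each stage. A gene was a member if this ratio was 0.4 or less at 5 or more of the 6 stages and if its mean GFP- level was 5 CPM or more at all 6. The mitochondrial genome, the W chromosome and 3 regions on chromosomes 1 and 14 were left out by the rule, and 1 gene of these regions would otherwise have met it. Of the whole table, 9440 genes outside these regions met the same floor of 5 CPM in the GFP- fraction, and they are the background used below. The 90 members are among these 9440 genes and count in the background shares unless stated otherwise. The files give Ensembl identifiers without gene symbols, and none of the identifiers could be matched to the reference gene table, so that the genes carry no names or functions here. No sequences of them were used.

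The embryos were Gallus gallus grown outside the egg at 37 °C, and all of them, in both fractions, had been electroporated with the reporter ptk-TFAP2AE1-GFP, in which an enhancer of TFAP2A, a transcription factor gene of the early crest, drives GFP. GFP+ libraries hold GFP-positive cells, labelled neural crest and with names such as NC_8. GFP- libraries hold the GFP-negative cells of the same dissected heads, with names such as WE_8, with around 20 heads pooled for each sort. Polyadenylated RNA was sequenced at Hamburger-Hamilton (HH) stages 6, 8, 10, 12, 14 and 16, the standard morphological stages of chick development. The authors' filtered table keeps 42 of 50 libraries, with 3 GFP+ and 3 GFP- libraries at HH6, HH8, HH10 and HH14, 4 and 4 at HH12, and 5 and 5 at HH16. A cell that took up no reporter or no longer used the enhancer was sorted as GFP-negative whatever its type, so GFP- is not known to be free of crest cells.

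Neural crest cells arise at the border of the neural plate, leave the neural tube by an epithelial-to-mesenchymal transition and migrate through the head, where they form facial skeleton, peripheral neurons, glia and pigment cells. The rest of the head at these stages holds neural tube, surface ectoderm and placodes, endoderm, mesoderm and the first vessels and blood cells. Without symbols, no marker of crest or of another tissue could be checked, so the fractions are known by their labels. In sorted bulk RNA, fewer cells of a type and less RNA of a gene per cell cannot be told apart.

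Kept libraries held 4869937 to 29316689 counted reads and the 8 left-out ones 512123 to 27432044. The left-out GFP+ library of HH6 was the shallowest. Both left-out libraries of HH8 went against their labels at these genes: the library labelled WE_8 replicate 4 held 835 CPM summed over the 90 genes, within the 678 to 1006 of the kept NC_8 libraries, and the library labelled NC_8 replicate 4 held 7183, against 7870 to 9542 in the kept WE_8 libraries. Neither group of HH8 used in the choice of members includes them.

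Each library was placed between the means of the other kept GFP+ and GFP- libraries of its stage, over background genes that are not members and whose means differ at least 2-fold. Kept GFP+ libraries of HH6 to HH14 were nearer to the GFP+ mean for 53.5% to 91.8% of these genes. For kept GFP- libraries the share was 43.3% to 61.6% at HH6 and 36.9% to 50.9% at HH10. It was 6.28% to 52.998% at HH12 and 9.74% to 39.8% at HH14. Within each of these stages the GFP- shares lay below the GFP+ shares. Still, some GFP- libraries of HH6, HH10 and HH12 were nearer to the GFP+ mean for most of the genes. At HH16 NC_16 replicates 2 and 3 were nearer to the GFP+ mean for 55.7% and 63.8%, but replicates 1, 4 and 5 for 26.6%, 26.2% and 25.1%. The latter are within the 10.6% to 39.3% of the GFP- libraries of HH16. The genes compared differ by library: they number 582, 572 and 594 for replicates 1, 4 and 5, but 415 for replicate 2 and 149 for replicate 3. So the set at HH16 depended on replicate 3, the kept library with the fewest detected genes. Over the background genes, the rank correlation with the other GFP+ libraries of HH16 was 0.919, 0.953 and 0.926 in replicates 1, 4 and 5. It was 0.940 and 0.854 in replicates 2 and 3. Because replicates 1, 4 and 5 were nearer to the GFP- mean for most of the non-member genes compared, the HH16 results are given with and without them. This criterion was applied to GFP+ libraries only. The GFP- libraries that were nearer to the GFP+ mean were not left out together, so the split is one-sided. These replicates also had the highest summed level of the 90 genes among all kept GFP+ libraries. Leaving them out therefore lowers the summed GFP+ level of HH16 by construction, and the values without them are descriptions. Without them 2 GFP+ libraries remain, replicates 2 and 3. WE_8 replicate 1 was nearer to the GFP+ mean for 76.1%, against 10.7% and 13.2% in the other kept GFP- libraries of HH8. Here too the genes compared differ: they number 1660 for replicate 1, 477 for replicate 2 and 847 for replicate 3. Without WE_8 replicate 1 the rule gave 85 genes, all of them members.

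At every stage the 90 genes made up a smaller share of the GFP+ libraries than of the GFP- libraries. Their summed level in the GFP- fraction averaged 6201, 8796, 8841, 7554, 7723 and 5704 CPM at HH6, HH8, HH10, HH12, HH14 and HH16. It averaged 1415, 890, 1454, 1312, 1431 and 2950 CPM in the GFP+ fraction at the same stages. The median ratio over the genes was 0.236, 0.113, 0.173, 0.178, 0.179 and 0.397, against 0.940 to 1.07 over the 9440 background genes. The genes were selected on these values, which are given as a description. The ratio was lowest at HH8, which was the lowest stage for 50 of the 90 genes, and it was nearest to 1 at HH16, where 8 genes had a ratio above 1. Without NC_16 replicates 1, 4 and 5 the median ratio at HH16 was 0.257, with 3 genes above 1 and a mean summed GFP+ level of 1901 CPM. The background was also lower in the pools that remain. Its median ratio within a pool was 0.859 for NC_16 replicate 2 and 0.743 for replicate 3, against 0.969 to 1.04 for replicates 1, 4 and 5. So the 0.257 is not to be set against the 0.940 to 1.07 above. Over the 6 stages the geometric mean ratio of a gene ran from 0.0833 to 0.318, with a median of 0.202.

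**Figure D1:**
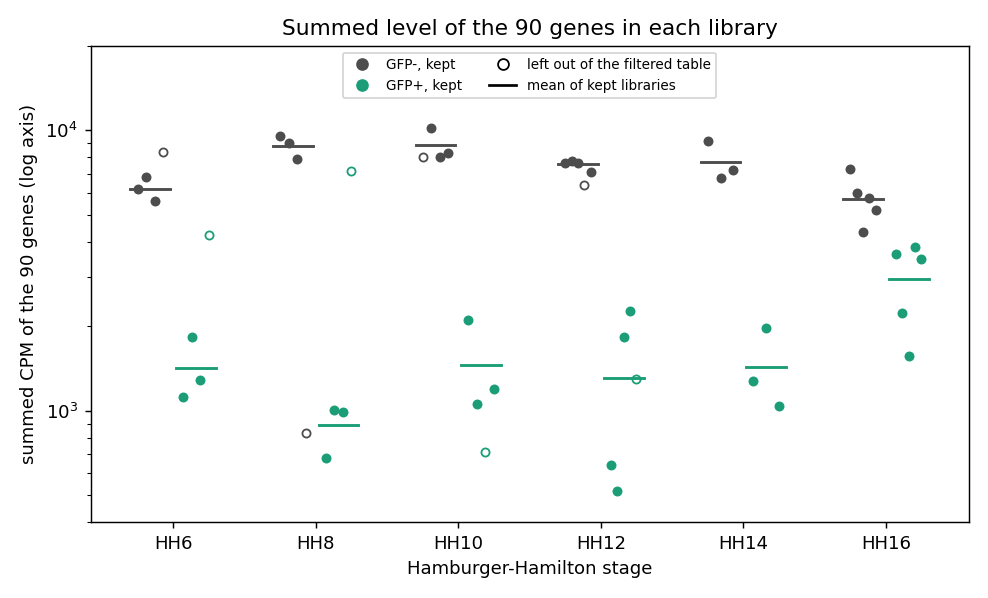
Summed CPM of the 90 genes (log axis) in each library by stage, GFP- in grey and GFP+ in green, with filled points for kept libraries, open points for left-out ones and a line at the mean of the kept libraries. The kept GFP+ libraries lie below the kept GFP- libraries at every stage, the gap is widest at HH8 (890 against 8796 CPM) and narrowest at HH16 (2950 against 5704 CPM), and the open points of HH8 stand in each other's place.

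Every GFP+ library lay below every GFP- library for 63 of the 90 genes at HH6, where this held for 5.20% of the background genes. The count was 89 at HH8 (background 9.84%), 88 at HH10 (10.3%), 80 at HH12 (5.84%), 85 at HH14 (9.07%) and 32 at HH16 (1.40%). The same libraries chose the genes, so nothing is read from these counts beyond the separation they describe. The ratio was at or below 0.4 for 76 of the 90 genes at HH6 (background 1.56%), for all 90 at HH8 (2.82%), HH10 (2.85%) and HH14 (2.36%), for 89 at HH12 (2.53%) and for 45 at HH16 (1.10%). These shares restate the rule, and the background includes the members: they are 76 of its 147 genes at or below 0.4 at HH6 and 45 of 104 at HH16. The limit was met at all 6 stages by 30 genes and at exactly 5 stages by 60. The exempt stage was HH16 for 45 genes, HH6 for 14 and HH12 for 1. Without NC_16 replicates 1, 4 and 5, the ratio at HH16 was at or below 0.4 for 66 of the 90. No background share was computed for that choice, and the median background ratio within the remaining pools was 0.859 and 0.743.

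The levels behind the exempt stages are given as a description, since the ratios that split the genes are made of them. The 45 genes above the limit at HH16 had a median GFP+ level of 9.28 CPM at HH10 and 15.6 CPM at HH16, while their median GFP- level was 53.6 and 25.9 CPM. The 14 genes above the limit at HH6 had a median GFP- level of 10.7 CPM at HH6, which was 28.1 CPM at HH10 and 43.04 CPM at HH14, and their median GFP+ level stayed between 4.46 and 5.81 CPM. The 30 genes below the limit throughout had median GFP- levels of 17.5 CPM at HH6 and 44.3 to 56.8 CPM from HH8 to HH14. Their median GFP+ level ran from 3.36 to 9.11 CPM. The map of ratios shows these groups as bands.

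**Figure D2:**
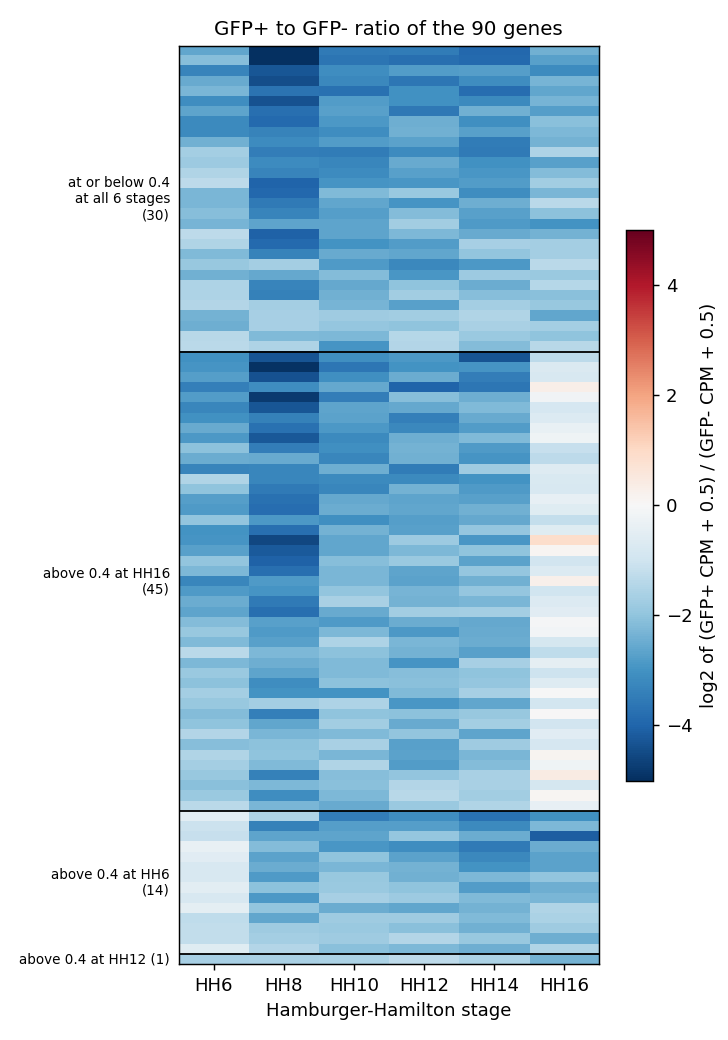
log2 of the GFP+ to GFP- ratio of the 90 genes (rows) at 6 stages (columns), blue where GFP+ is lower, in blocks by the stage at which the ratio is above 0.4 and ordered by geometric mean ratio within a block. The HH8 column is the darkest, and the HH16 column of the block of 45 genes is pale, with 8 genes above 0.

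ENSGALG00000045684 (chr28:3528771-3530950 on GRCg6a, minus strand) had the lowest geometric mean ratio. Its CPM in the GFP- libraries was 2.61, 13.9 and 11.1 at HH6, 38.6, 91.5 and 52.9 at HH8, 93.7, 45.4 and 81.5 at HH10, 60.8, 83.2, 209.9 and 78.2 at HH12, 277, 196 and 102 at HH14 and 95.1, 257, 212, 127 and 359 at HH16. In the GFP+ libraries it was 0.314, 0.382 and 2.56 at HH6, 0.347, 1.31 and 0.815 at HH8, 11.5, 0.622 and 5.34 at HH10, 3.04, 1.25, 7.43 and 25.02 at HH12, 13.02, 19.8 and 3.49 at HH14 and 51.2, 47.9, 38.9, 31.003 and 28.5 at HH16. The kept libraries of the fractions did not overlap at any stage, and the GFP+ mean was lowest at HH6 and HH8 and highest at HH16.

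ENSGALG00000032349 (chr11:11518646-11547898, minus strand) came next. Its CPM in the GFP- fraction was 1.82, 24.8 and 20.7 at HH6, 68.1, 42.8 and 46.3 at HH8, 113, 111 and 92.2 at HH10, 142, 197, 149 and 107 at HH12, 211, 161 and 182 at HH14 and 76.4, 176, 145, 99.3 and 58.6 at HH16; that in the GFP+ fraction was 0.210, 0.600 and 8.81 at HH6, 0.347, 1.31 and 1.69 at HH8, 16.2, 4.11 and 3.68 at HH10, 2.31, 0.715, 11.9 and 26.8 at HH12, 12.4, 12.8 and 10.9 at HH14 and 43.2, 17.7, 13.98, 5.17 and 1.53 at HH16. One GFP- library of HH6, at 1.82 CPM, lay below 1 of the 3 GFP+ libraries, and the kept libraries did not overlap from HH8 on. At HH16 both fractions spread widely.

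The other genes of lowest geometric mean ratio were ENSGALG00000023296 on chromosome 8, ENSGALG00000001177 on chromosome 26, and ENSGALG00000016215 and ENSGALG00000008635 on chromosome 1. ENSGALG00000001177 measured 41.7, 36.5 and 30.3 CPM in the GFP- libraries of HH8 and 0.624, 1.64 and 1.40 CPM in the GFP+ libraries. ENSGALG00000016215 measured 31.9, 32.1 and 31.5 CPM in the GFP- fraction at HH8 and 2.22, 1.20 and 2.62 CPM in the GFP+ fraction. Neither gene's fractions overlapped at that stage. ENSGALG00000008635 was higher at the early stages than at the last. In the GFP- fraction it measured 147, 89.7 and 130.5 CPM at HH8 and 1.43, 13.6, 4.75, 1.73 and 7.07 CPM at HH16, and in the GFP+ fraction 1.39, 3.11 and 12.7 and then 0.129, 3.87, 4.43, 0.603 and 0.960 CPM. At HH16 its fractions overlapped.

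The member with the highest level in the GFP- fraction was ENSGALG00000041555 (chr27:5538288-5555467, plus strand), with 51 separate exon blocks. Its CPM in the GFP- fraction was 307, 277 and 131 at HH6, 578, 641 and 378 at HH8, 1034, 342 and 883 at HH10, 473, 625.3, 719.6 and 1049.6 at HH12, 1105, 1191 and 664 at HH14 and 1403, 1299, 991, 1674 and 942 at HH16; that in the GFP+ fraction was 47.7, 61.03 and 61.000 at HH6, 47.4, 78.5 and 59.9 at HH8, 232, 185 and 134 at HH10, 50.6, 30.04, 248 and 339.9 at HH12, 231, 449 and 96.8 at HH14 and 863, 532, 319, 1210.5 and 1118 at HH16. The fractions did not overlap up to HH14, and at HH16 the upper 2 GFP+ libraries lay among the GFP- libraries.

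ENSGALG00000034868 (chr33:5216371-5226040, plus strand) had the next highest GFP- level. It measured 784, 1016 and 1075 CPM in the GFP- fraction at HH8 against 64.5, 114 and 115 CPM in the GFP+ fraction. At HH16 the GFP- libraries held 11.05, 511, 35.3, 36.8 and 18.8 CPM and the GFP+ libraries 11.9, 165, 31.9, 7.06 and 12.97 CPM. The highest GFP- and the highest GFP+ value at HH16 came from the same pool of heads, and without that pool the HH16 values of both fractions lay between 7.06 and 36.8 CPM. ENSGALG00000026983 on chromosome 9, ENSGALG00000006343 on chromosome 6, ENSGALG00000042492 on chromosome 4 and ENSGALG00000011581 on chromosome 5 completed the most abundant genes. ENSGALG00000042492 measured 752, 427 and 310.3 CPM in the GFP- fraction at HH8 and 86.8, 96.3, 73.8, 95.7 and 126 CPM at HH16, against 44.99, 36.2 and 27.1 and 31.4, 41.4, 48.8, 91.5 and 98.5 CPM in the GFP+ fraction. The fractions overlapped at HH16 and not at HH8.

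**Figure D3:**
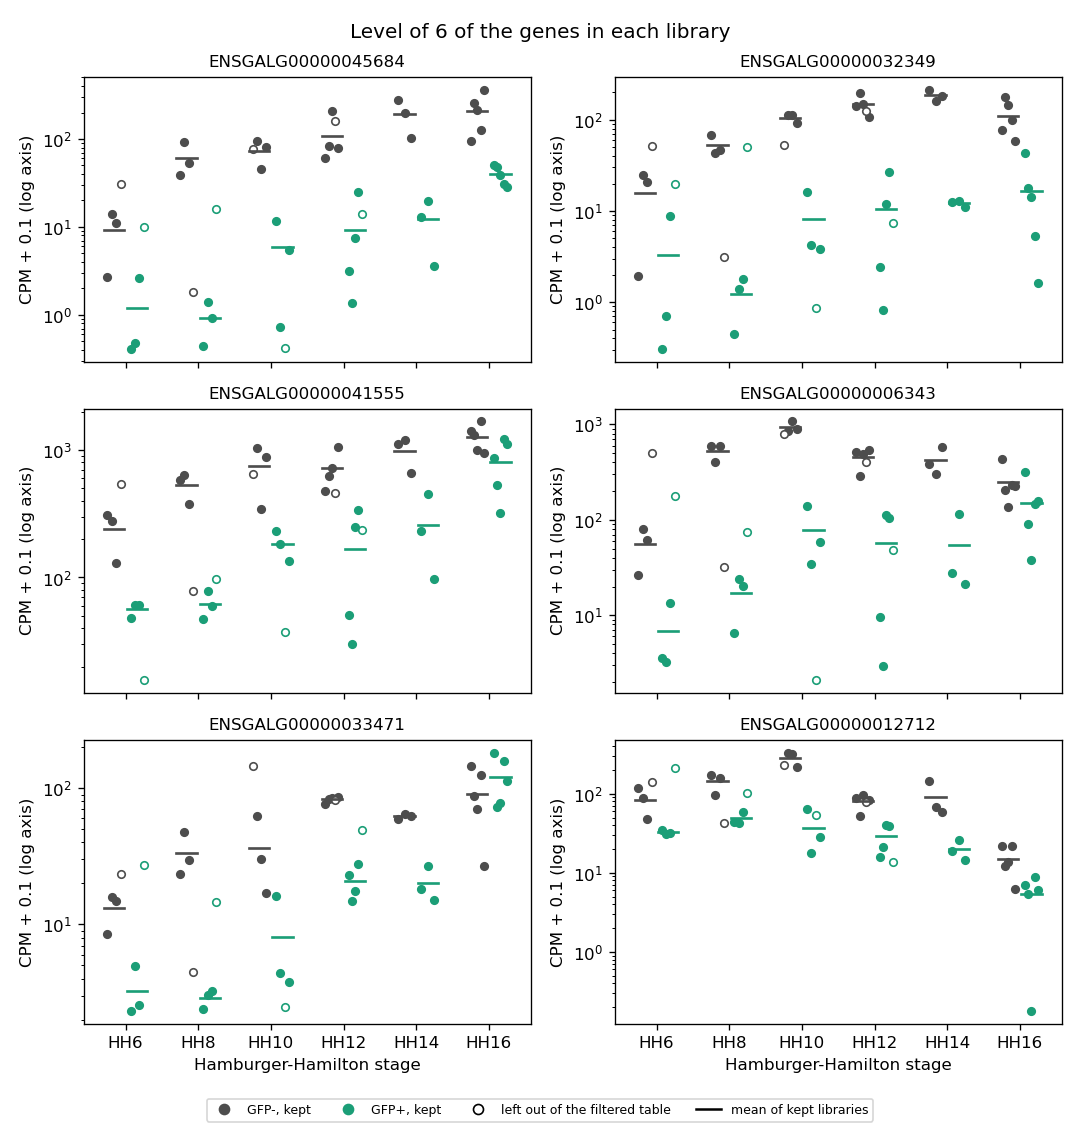
CPM + 0.1 (log axis) of 6 of the genes in each library, GFP- in grey and GFP+ in green, open points for left-out libraries and a line at the mean of the kept ones. ENSGALG00000045684 and ENSGALG00000032349 stay apart between the fractions' kept libraries from HH8 on, while their open points of HH8 stand the other way round, ENSGALG00000033471 reaches a mean of 121 CPM in the GFP+ fraction against 91.1 CPM in the GFP- fraction at HH16, and ENSGALG00000012712 is low in both fractions at HH16.

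At several stages GFP+ libraries differed from each other in most of the 90 genes at once, with the most lopsided counts at HH12 and in 1 library of HH10. At HH12 the GFP+ libraries replicate 1 and 2 held 640 and 515 CPM summed over the genes, and replicates 3 and 4 held 1831 and 2261 CPM. Only 6 and 4 of the 90 genes lay above the mean of the other GFP+ libraries of that stage in the former pair, and 82 and 87 did in the latter. The median background gene differed from that mean by a log2 value between -0.07 and 0.09 in the same 4 libraries. The 4 GFP- libraries of HH12 held 7633, 7778, 7677 and 7128 CPM, so the spread stood in the GFP+ fraction. The former pair shares 1 flow cell name in its labels. The latter carry other names and belong to a set joined from several flow cell names by a number that the library names share. Within these sets the median GFP+ to GFP- ratio was 0.0893 and 0.290. A flow cell and the embryos sorted for it cannot be told apart here.

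NC_10 replicate 1 held 2111 CPM against 1055 and 1197 CPM in the other kept GFP+ libraries of HH10, with 86 of the 90 genes above the mean of those. At HH8 the kept GFP+ libraries held 678, 1006 and 986 CPM, with 17, 64 and 71 of the 90 genes above the mean of the others. At HH14 they held 1277, 1974 and 1040 CPM, with 44, 70 and 29 genes above. At HH16 they held 3635, 2237, 1566, 3836 and 3478 CPM, with 72, 49, 25, 64 and 48 genes above. Replicates 1, 4 and 5 stood above every kept GFP+ library of the earlier stages and replicate 2 above all of these but NC_12 replicate 4, while replicate 3 lay among them. Replicate 3 had the fewest genes with 10 or more reads of all kept ones, at 11128.

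A GFP-positive and a GFP-negative library of the same pool were both kept for 19 pools. The median GFP+ to GFP- ratio over the 90 genes within a pool was 0.214, 0.238 and 0.326 at HH6, 0.0827, 0.139 and 0.150 at HH8, and 0.162 and 0.217 at HH10. It was 0.0756, 0.0949 and 0.329 at HH12 and 0.135, 0.139 and 0.280 at HH14. At HH16 it was 0.250, 0.372, 0.399, 0.492 and 0.548. The HH8 pools all lay below the HH6 pools, and 4 of the 5 HH16 pools lay above every pool of another stage. At least 89 of the 90 ratios were below 1 in each pool up to HH14, and 73 to 87 were at HH16. The median ratio of the background genes within a pool ran from 0.743 to 1.17. The libraries of these pools chose the genes, so the low ratios restate the rule and are no replication of it.

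The change of each fraction with stage was tested over all 15737 genes that passed the filter on low counts, among them all 90 members, with the quasi-likelihood test of edgeR and Benjamini-Hochberg adjustment at 0.05. The rule drew on the same libraries: it asked for a ratio of 0.4 or less at any 5 or more of the 6 stages. All 90 genes met this at HH10, while 45 were above the limit at HH16 and 14 at HH6. So the counts, changes and p-values below describe the genes and are not independent of how they were chosen. The same holds for the fits that left out 1 library. In the GFP- fraction from HH6 to HH10, 8 of the 90 genes rose and 0 fell, where 1.45% of all tested genes rose and 0.794% fell. Among the background genes 1.13% rose and 0.731% fell. The median log2 change of the members was 0.64, against -0.06 over all tested genes, and 68 of 90 lay above 0.

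ENSGALG00000006343 (chr6:20062668-20118932, minus strand) showed the largest of these rises. Its GFP- libraries held 26.3, 79.2 and 60.99 CPM at HH6 and 856, 1074 and 886 CPM at HH10, a log2 change of 3.91 (SE 0.91; edgeR adjusted p = 0.0151). Every HH10 library lay above every HH6 library. The call was lost without any 1 of the 3 WE_6 libraries, and the adjusted p over the 6 fits that left out 1 library ran from 0.0266 to 0.0806. A second member, ENSGALG00000006351, lies within its span on the opposite strand, with 12323 bases shared, and the counting was stranded. ENSGALG00000008473 (chr12:19926150-19990738, minus strand) held 17.8, 21.9 and 10.7 CPM in the GFP- fraction at HH6 and 124, 154 and 149 CPM at HH10, a log2 change of 2.93 (SE 0.61; edgeR adjusted p = 0.00544). The groups did not overlap either, and this call was lost in 1 of 6 such fits. The count of 8 rested on single libraries: it was 1 without WE_6 replicate 3, the shallowest kept library, 3 without WE_6 replicate 2 and 5 without WE_10 replicate 2, and with the pool as a block in limma voom it was 11 rises and 5 falls, against 12 and 5 without the block.

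In the GFP- fraction from HH10 to HH16, 0 of the 90 genes rose and 14 fell, where 1.77% of all tested genes rose and 3.12% fell. Among the background genes 1.55% rose and 2.57% fell. The median log2 change was -0.78, against 0.06 over all tested genes, and 64 of 90 genes lay below 0. ENSGALG00000005352 (chr20:8019682-8030097, minus strand) held 351, 248 and 196 CPM in the GFP- fraction at HH10 and 3.70, 27.2, 5.62, 3.50 and 8.53 CPM at HH16, a log2 change of -4.74 (SE 0.90; edgeR adjusted p = 0.00123). ENSGALG00000012712 (chr2:61921863-61932480, plus strand) held 329, 313 and 217 CPM at HH10 and 21.7, 12.01, 13.5, 21.7 and 6.09 CPM at HH16, a log2 change of -4.22 (SE 0.51; edgeR adjusted p = 1.91e-06). For both genes the highest HH16 library lay below the lowest HH10 library, and neither call was lost when any library of these groups was left out. Without WE_10 replicate 2 the count was 7, 6 of them falls, and with the pool as a block in limma voom it was 28 falls and 4 rises.

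In the GFP+ fraction from HH6 to HH10, 3 of the 90 genes rose and 1 fell, where 1.05% of all tested genes rose and 0.979% fell. Among the background genes these shares were 0.975% and 0.932%. The median log2 change was 0.37, with 54 of 90 genes above 0. ENSGALG00000006343, which also rose in the GFP- fraction, held 3.46, 3.11 and 13.4 CPM in the GFP+ fraction at HH6 and 139, 34.2 and 58.01 CPM at HH10, a log2 change of 3.48 (SE 0.90; edgeR adjusted p = 0.0347). ENSGALG00000015148 on chromosome Z held 1.15, 0.382 and 0.109 CPM at HH6 and 6.01, 3.67 and 4.74 CPM at HH10, a log2 change of 3.09 (SE 0.58; edgeR adjusted p = 0.00162). The HH10 libraries of both lay above all HH6 libraries. ENSGALG00000004270 on chromosome 10 held 22.7, 66.8 and 45.6 CPM at HH6 and 13.4, 3.80 and 0.322 CPM at HH10, a log2 change of -2.96 (SE 0.82; edgeR adjusted p = 0.0469), and here all HH10 libraries lay below. The count of 4 was 1 without NC_6 replicate 1, without NC_6 replicate 2 or without NC_10 replicate 4. The pool as a block in limma voom gave 2. The call of ENSGALG00000004270 was lost in 5 of 6 fits that left out 1 library and that of ENSGALG00000006343 in 4 of 6.

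In the GFP+ fraction from HH10 to HH16, 16 of the 90 genes rose and 4 fell, where 3.06% of all tested genes rose and 4% fell. Among the background genes 3.14% rose and 3.69% fell. The median log2 change was 0.36, against 0.05 over all tested genes, and 56 of 90 genes lay above 0. Without NC_16 replicates 1, 4 and 5, a choice made after seeing the data, 2 GFP+ libraries of HH16 remain, those of lower summed level. Of these, replicate 3 has the fewest detected genes of all kept libraries. In that fit 10 genes rose and 5 fell, where 5.70% of all tested genes rose and 7.11% fell. Of these 15 calls 11 were among the 20, and the median log2 change turned to -0.05, against -0.14 over all tested genes. Without replicate 3 alone, 17 genes rose and 3 fell. The median log2 change was then 0.30, against 0.03 over all tested genes, and no share of all tested genes called is given for that fit. Of the 16 that rose with all kept libraries, 12 belonged to the 45 genes exempt at HH16, a class that the GFP+ level at HH16 helps to set, and 4 to the 30 genes below the limit throughout. ENSGALG00000001161 (chr24:1016857-1089783, plus strand) held 6.01, 1.24 and 4.37 CPM in the GFP+ fraction at HH10 and 94.3, 24.2, 27.5, 93.4 and 75.96 CPM at HH16, a log2 change of 4.06 (SE 0.63; edgeR adjusted p = 7.87e-05). ENSGALG00000033471 (chr1:62359691-62455538, plus strand) held 16.03, 4.29 and 3.68 CPM at HH10 and 182, 72.7, 77.8, 159 and 112 CPM at HH16, a log2 change of 3.96 (SE 0.53; edgeR adjusted p = 1.34e-05). All HH16 libraries of both genes lay above all HH10 libraries, and neither call was lost when any 1 library was left out or when NC_16 replicates 1, 4 and 5 were. Both genes are among the 45 exempt at HH16, so these values are a description.

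In ENSGALG00000033471 the GFP- libraries held 62.4, 30.1 and 16.9 CPM at HH10 and 146, 87.8, 69.8, 126 and 26.9 CPM at HH16, so that its fractions overlapped at HH16. Among the genes that fell in the GFP+ fraction, ENSGALG00000012712 held 63.9, 17.6 and 28.1 CPM at HH10 and 6.90, 5.27, 0.0777, 8.74 and 5.89 CPM at HH16, a log2 change of -2.71 (SE 0.49; edgeR adjusted p = 5.06e-04). ENSGALG00000026983 (chr9:16088106-16096383, minus strand) held 122, 82.9 and 113 CPM at HH10 and 8.78, 17.04, 26.8, 6.63 and 14.1 CPM at HH16, a log2 change of -2.69 (SE 0.43; edgeR adjusted p = 1.11e-04). The HH16 libraries of both lay below all HH10 libraries. Of the 4 genes that fell in the GFP+ fraction, 3 were among the 14 that fell in the GFP- fraction, and none of the 16 that rose in the GFP+ fraction was among those 14. The rule bounds the ratio of the fractions, so their changes are coupled among the members. No share of the background genes was computed for this overlap, which is a description. Whether a gene's change differed between fractions was not tested, because the rule used that contrast. Without NC_10 replicate 2 the count of 20 was 12, without NC_10 replicate 4 it was 13, and a fit of the HH10 and HH16 GFP+ libraries only gave 8. ENSGALG00000012712 was not called in that last fit.

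**Figure D4:**
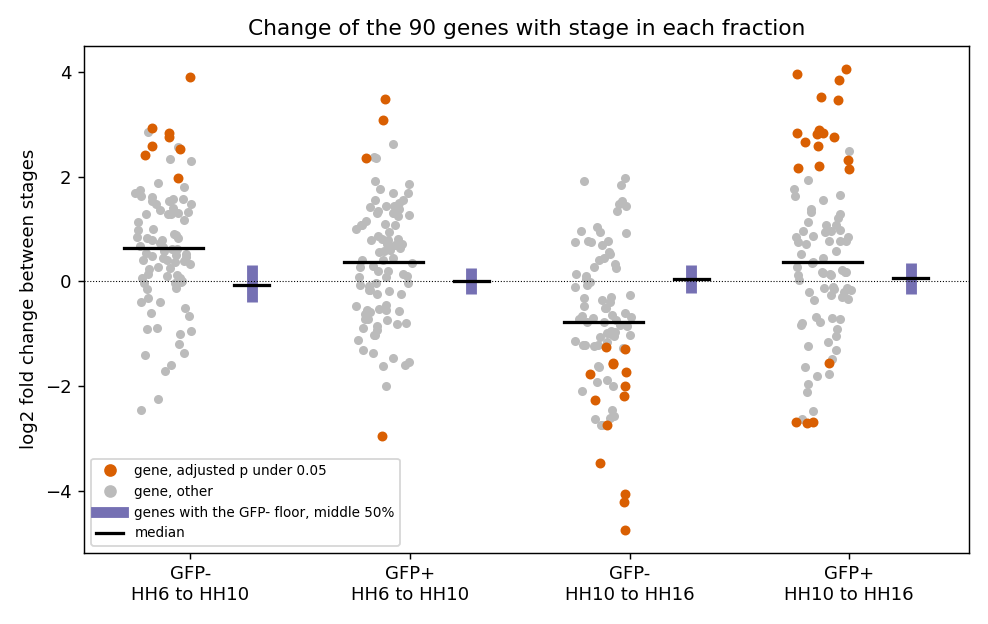
log2 fold change between stages of the 90 genes in each fraction, with genes past the threshold in orange, a line at the median, and beside them the middle 50% of the 9440 genes with the same GFP- floor (purple). Medians are 0.64 in the GFP- fraction and 0.37 in the GFP+ fraction from HH6 to HH10, and -0.78 in the GFP- fraction and 0.36 in the GFP+ fraction from HH10 to HH16. The last is -0.05 without NC_16 replicates 1, 4 and 5, which leaves 2 GFP+ libraries at HH16, and 0.30 without NC_16 replicate 3 alone.

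The stage of the highest mean level also differed between fractions. In the GFP+ fraction, 43 of the 90 genes were highest at HH16, 22 at HH6 and 3 at HH8, which is 47.8%, 24.4% and 3.33% of them, against 26.5%, 15.2% and 18.6% of the background genes. Without NC_16 replicates 1, 4 and 5 the count at HH16 was 33, against 25.4% of the background genes. Those replicates have the highest summed level of the 90 genes, so leaving them out favours a lower count. In the GFP- fraction, 23 were highest at HH8 and 17 at HH14, or 25.6% and 18.9%, against 12.2% and 7.03% of the background genes. These shares are descriptions, since the rule set bounds on both fractions at each stage.

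The 8 libraries that the rule did not use hold 1 GFP+ and 1 GFP- library at each of HH6, HH8, HH10 and HH12. At HH10 the left-out pair gave a median ratio of 0.125, with 84 of 90 genes below 1 and 73 at or below 0.4, where 33.6% of the background genes were below 1 and 8.36% at or below 0.4. The background median was 1.48. Over the background genes, the GFP- library of this pair had a rank correlation of 0.746 with the kept WE_10 libraries. Its median background gene lay at a log2 of -0.48 from their mean. At HH12 the left-out pair gave 0.238, with 83 genes below 1 and 63 at or below 0.4, where 40.5% of the background genes were below 1 and 7.47% at or below 0.4. The background median there was 1.18. In both pairs 79 genes were below 1, where 25.2% of the background genes were, and 57 were at or below 0.4, where 4.27% were. ENSGALG00000045684 measured 0.324 CPM in the left-out GFP+ library and 76.1 CPM in the GFP- library of HH10, and 13.9 against 161 CPM at HH12. ENSGALG00000006343 measured 2.00 against 785 CPM at HH10 and 48.5 against 404 CPM at HH12. Of these 4 libraries all but the GFP- library of HH10 share a pool of heads with a kept library, so they are not all independent embryos. At both stages the left-out GFP+ and GFP- libraries came from different pools and from different flow cell sets. In these 2 pairs the fraction and the flow cell set cannot be told apart.

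At HH6 the left-out pair gave a median ratio of 0.669, with 57 of 90 genes below 1 where 58.9% of the background genes were. Its GFP+ library held 512123 reads, and 14.9% of these fell on genes that were low in all kept libraries. At HH8 the pair gave 5.41, and none of the 90 genes was below 1. Over the non-member genes that differ 2-fold between the kept fractions, the library labelled WE_8 replicate 4 was nearer to the GFP+ mean for 87.4%, within the 81.7% to 89.6% of the kept GFP+ libraries of HH8. The library labelled NC_8 replicate 4 was nearer to it for 60.7%, against 10.7%, 13.2% and 76.1% in the kept GFP- libraries of HH8. The labels were kept as given.

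**Figure D5:**
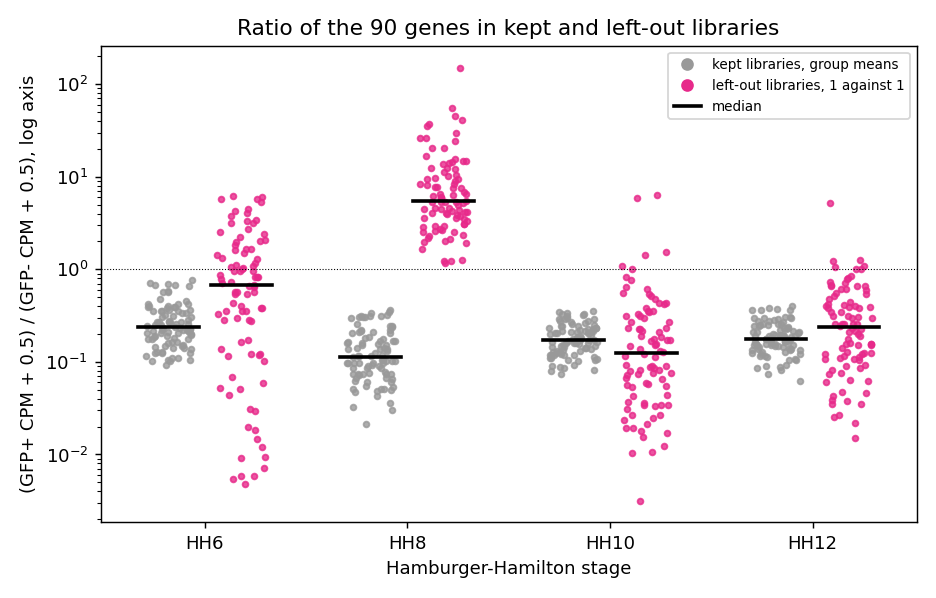
GFP+ to GFP- ratio (log axis) of the 90 genes at 4 stages in the kept libraries (grey, ratio of group means, the values that chose the genes) and in the left-out libraries (pink, 1 library against 1), with a line at the median. The left-out medians are 0.125 at HH10 and 0.238 at HH12, 0.669 at HH6, and 5.41 at HH8, where all 90 points lie above 1.

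Over all 8 left-out libraries, with stage as a term, edgeR's quasi-likelihood test called 0 of the 90 genes and 0% of the 13811 genes tested in either direction. At an unadjusted p under 0.05 it called 3 of the 90 and 861 of 13811, and the lowest adjusted p among the 90 was 0.748. DESeq2 called 11 of the 90, all lower in the GFP+ fraction, where it called 5.31% of all tested genes higher and 1.34% lower, and 0.604% and 1.63% of the background genes. With limma voom the count was 0. The median log2 difference was -1.37, against 0.06 over all tested genes, and 81 of 90 genes lay below 0. Without the HH8 libraries the median was -2.44. With the HH10 and HH12 libraries alone it was -2.93, against 0.30 over all tested genes, 86 of 90 lay below 0, and 57 of 90 had an unadjusted p under 0.05 where 2683 of 13517 genes did. No gene passed the adjusted threshold there either, the lowest adjusted p of edgeR being 0.0802. With the pool in place of the stage, only the HH6 and HH8 pairs inform the difference, and the median was 0.69. Both subsets of libraries were chosen after their values had been seen.

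In structure the 90 genes were close to the background. Their median exon length was 2550 bases against 2581, they had a median of 8 separate exon blocks against 10, and a median span of 15080 bases against 14557.5. A single exon block was found for 1 of them. They lay on 25 chromosomes, with 10 each on chromosomes 1 and 2 and 8 each on chromosomes 4 and 5. Besides the pair on chromosome 6, ENSGALG00000047571 and ENSGALG00000029401 on chromosome 5 overlap by 1290 bases on opposite strands, and ENSGALG00000036593 and ENSGALG00000034111 on chromosome 11 lie 30810 bases apart on the same strand. No other members lay within 100000 bases of each other.

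The limits of the rule fell within a continuum. Just inside the ratio limit were ENSGALG00000036189 and ENSGALG00000038722, with ratios of 0.395 at the fifth lowest stage, and just outside were ENSGALG00000050508 and ENSGALG00000026276, with 0.401 and 0.403. A further 51 genes had that ratio between 0.4 and 0.5. Just inside the GFP- floor were ENSGALG00000005493 and ENSGALG00000008970, with lowest GFP- means of 5.04 and 5.15 CPM, and just outside were ENSGALG00000001621 and ENSGALG00000050026, with 4.98 and 4.97 CPM. Without the floor 187 genes met the ratio limit.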

How the data were processed

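Values are read counts per gene, deposited by the authors in a table of 50 libraries and a filtered table of 42 that leaves out libraries of low quality, per the series' design text. The submitters' processing notes name cutadapt 2.10, HISAT2 2.1.0 and SAMtools 1.9. Exonic reads were counted by strand with featureCounts 1.6.2 on the Ensembl annotation of GRCg6a, per the file headers. No option for reads shared by several places or genes is set there, so near-identical genes are understated. Kept counts were identical in both tables.

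CPM used column sums. Tests used edgeR 4.0.16 with filterByExpr by group (15737 genes tested, 8619 not), TMM normalisation, robust dispersion (common 0.219) and all 12 kept groups fitted at once, and Benjamini-Hochberg adjustment over all genes tested. The left-out libraries were fitted with stage and population as terms. Alternatives used DESeq2 1.42.0 and limma 3.58.1. The fits of the GFP- change from HH10 to HH16 and of the left-out libraries were also run on simulated counts, with the common dispersion for all genes. The simulation held no pool or flow cell effect, so it says nothing about such effects or about the GFP+ stage tests. The GFP+ and GFP- library of a pool share a name in the titles, and their deviations from the group means correlated above 0.1 in every pair (0.135 to 0.873). So the pool served as a block in alternative fits, as a random effect in limma voom where stages were compared. The edgeR stage tests had no pool term and treated all kept libraries as independent. No 2 libraries of a group agreed within sampling noise (lowest chi-square per degree of freedom 8.31). P-values of the stage tests measure the spread between libraries from different pools of heads, and pools of a group can also differ in flow cell. In the fit of the left-out libraries, the GFP+ and GFP- library of HH6 share a pool, as do those of HH8. The p-values of that fit therefore do not measure a spread between pools alone. The main stage tests had no term for the flow cell. The stages compared differ in their mix of flow cells, so stage and flow cell are partly entangled in them. Flow cells were grouped in 4 sets by the names in the labels, and 1 set joins several flow cell names that share a number.

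The members, comparisons and lists were chosen with earlier results of these data known. Named were the 6 members of lowest geometric mean ratio, the 6 of highest GFP- level, those next to a limit and, per stage comparison, the largest changes past the threshold, held to 2 rises and 2 falls because no symbols exist. Members that neighbour each other were named for their position. The marker lists of crest and other head tissues need symbols and were not used here.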

Additional observations from a re-analysis of the deposited data

Results flagged for a closer look

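Among the named members and their summed level, 80 groups of 4 or 5 kept libraries were examined, and in 6 of them 1 library stood far from the others, where chance gives about 1 in 20. All 6 lie at HH12 or HH16, the stages with that many libraries.

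ENSGALG00000034868 stood out in both libraries of 1 pool of HH16: WE_16 replicate 2 held 511 CPM against 11.05 to 36.8 CPM in the other 4 GFP- libraries, and NC_16 replicate 2 held 165 CPM against 7.06 to 31.9 CPM. WE_16 replicate 2 also stood out for ENSGALG00000005352, with 27.2 CPM against 3.50 to 8.53 CPM. NC_16 replicate 3, the kept library with the fewest detected genes, held 0 CPM of ENSGALG00000005352 against 5.55 to 7.49 CPM in the other GFP+ libraries. At its depth of 12876650 reads a count of 0 allows up to 0.233 CPM, by counting error only. WE_16 replicate 1 held 214 CPM of ENSGALG00000023296 against 18.4 to 42.7 CPM. WE_12 replicate 3 held 210 CPM of ENSGALG00000045684 against 60.8 to 83.2 CPM.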

How the results depend on the processing

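The set of 90 held between 84 and 96 genes when any 1 library was left out, and 57 genes were in every such set. It held 141 genes with a ratio limit of 0.5 and 57 with a GFP- floor of 10 CPM, and 61 with all 50 libraries, 48 of them members. The median over members of the log2 GFP+ minus GFP- difference averaged over stages was -2.40, ran from -2.48 to -2.34 without single libraries and was -2.51 with the pool as a block. Within the flow cell of the HH12 pair of low GFP+ level, which covers HH12 only, it was -3.74. Within the other 3 sets it was -2.52 to -2.23, each over several stages with HH16 among them. These values therefore differ in stage as well as in flow cell.

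Called members from HH6 to HH10 in the GFP- fraction numbered 8, and 1 to 8 without single libraries. They were 16 with flow cell set as a term, with DESeq2 and with the pool as a block, 17 with limma voom, 14 with the compared groups alone, 0 with all 50 libraries and 5 without the 3 kept libraries of fewest genes, a choice made after seeing the data. From HH10 to HH16 in the GFP- fraction they numbered 14 (7 to 14), and were 28 with that term, 22 with DESeq2, 32 with limma voom and with the block, and 7 with all 50 libraries. In the GFP+ fraction from HH6 to HH10 they numbered 4 (1 to 3), and were 9 with that term, 11 with the groups alone, 8 with DESeq2, 2 without a filter, with limma voom and with the block, and 0 with all 50 libraries. In the GFP+ fraction from HH10 to HH16 they numbered 20 (12 to 25), and were 28 with that term, 29 with DESeq2 and 16 with limma voom. They were 17 with the block and with all 50 libraries, 8 with the groups alone and 15 without NC_16 replicates 1, 4 and 5. In the left-out libraries DESeq2 called 11 and every fit without 1 library 0. The cause of these moves was not tested. Of 192 refits of the named stage changes, 25 lost the call and 0 changed sign.

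With 3 libraries in most groups and a depth of 4869937 reads in the shallowest, changes of low members are poorly resolved. The stage tests share libraries with the rule, and only the left-out libraries are outside it, some from shared pools. At HH10 and HH12 the fractions of the left-out libraries also differ in flow cell set.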
